A study of Rattus norvegicus with 6 samples.

Results

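Sox genes encode transcription factors that bind DNA through an HMG box, and in neural progenitors they were examined here at the level of polyA RNA. The members were 10 Sox symbols chosen by name, of which 7 had values in the 4 RNA-seq tables, *Sox2*, *Sox4*, *Sox5*, *Sox6*, *Sox8*, *Sox9* and *Sox11*, among 17337 gene names in all. *Sox1*, *Sox3* and *Sox21* were not analysed here. The cells were cortical progenitors from Sprague Dawley rats at embryonic day 14, untreated, grown with bFGF and EGF at 20 ng/ml each and collected after passage 2. There were 2 biological replicates, A and B, each sequenced as 2 technical libraries, called A1, A2, B1 and B2, and no second condition. The cultures were primary cells from whole cortices of embryos of either sex, so other cells of the cortex could remain in them. The 2 Start-seq samples of the series were not analysed here.

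Sox factors act in subgroups whose proteins resemble each other. SoxB1 factors, such as SOX2, hold neural cells in the progenitor state. SoxC factors, such as SOX4 and SOX11, are best known from cells that leave this state to become neurons, SoxE factors from glial cells, and SoxD factors, which have no activation domain of their own, work mainly beside other Sox proteins. Many Sox proteins bind DNA together with a partner, as SOX2 does with POU factors.

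Levels are in FPKM, fragments per kilobase of transcript and per 1000000 fragments of the library. Coverage per FPKM, a measure of depth, was between 22.7 and 24.4 for A1, A2 and B1, and 6.83 for B2, so values from B2 rest on fewer reads. At this depth the lowest member, *Sox6*, still had a mean coverage of 17.1 in B2, and *Sox2* had 2433. Values of the technical libraries were averaged first, which leaves n = 2 biological replicates, and no p-value was computed. Marker genes of neural progenitors were present, since 9 of 9 listed markers had a mean of at least 1 FPKM, while 6 of 6 endothelial and 6 of 6 microglial markers had a mean below 1 FPKM. Of these, *Flt1*, of endothelium, and *Aif1*, of microglia, were above 1 FPKM in replicate B, at 1.56 and 1.05, against 0.267 and 0.388 in A.

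Promoter sequence was available for 3 of the 7 members, and it is shown for these. They include *Sox2*, the highest member in level, *Sox6*, the lowest, and *Sox11*, which lies between them. The sequences are the 250 bases before the annotated start in RefSeq, build GRCr8, at chr2:119464881-119465130 on the plus strand for *Sox2*, chr6:49738795-49739044 on the minus strand for *Sox11* and chr1:179665372-179665621 on the minus strand for *Sox6*. Capitals mark, on either strand, the CCAAT box (CCAAT), the GC box (GGGCGG), the octamer core (ATGCAAA), which POU factors are known to bind, and the Sox-type letters ACAAT and ACAAAG. The capitals of the printed sequences do not overlap each other.
Sox2: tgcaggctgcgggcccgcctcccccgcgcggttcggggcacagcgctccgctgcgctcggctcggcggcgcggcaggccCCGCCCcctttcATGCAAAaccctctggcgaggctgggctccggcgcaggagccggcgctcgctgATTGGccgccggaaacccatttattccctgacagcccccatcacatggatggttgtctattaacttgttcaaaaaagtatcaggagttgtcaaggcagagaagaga
Sox11: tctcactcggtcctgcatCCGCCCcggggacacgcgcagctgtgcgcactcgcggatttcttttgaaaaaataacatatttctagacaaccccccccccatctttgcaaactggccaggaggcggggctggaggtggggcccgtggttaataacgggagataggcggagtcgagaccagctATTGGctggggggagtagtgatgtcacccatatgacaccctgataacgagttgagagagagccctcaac
Sox6: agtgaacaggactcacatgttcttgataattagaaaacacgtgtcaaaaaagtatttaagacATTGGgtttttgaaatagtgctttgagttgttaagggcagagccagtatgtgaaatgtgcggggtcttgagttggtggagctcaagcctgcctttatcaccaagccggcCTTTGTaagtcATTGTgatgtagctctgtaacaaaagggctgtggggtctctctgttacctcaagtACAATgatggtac

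All 3 windows held a CCAAT box, which 34.0% of the 33469 promoters in the RefSeq table hold in the same 250 bases. The GC box was found before *Sox2* and *Sox11* and not before *Sox6*, against 30.5% of all promoters. *Sox2* alone among the 3 held the octamer core, which was present in 4.08% of all promoters. *Sox6* alone held ACAAT (30.0% of all promoters) and ACAAAG (16.3%), and none of the 3 held TATAAA (12.9%). The GC content was 64.4% for *Sox2*, 56.8% for *Sox11* and 42.8% for *Sox6*, beside a median of 51.2% over all promoters. The *Sox2* window held 23 CpG dinucleotides, that of *Sox11* 14 and that of *Sox6* 3, beside a median of 5. These matches describe the sequence and were not tested as binding sites. The windows also rest on the annotated starts. The paper reports that many RefSeq starts in rn6 differ from those seen by Start-seq. The starts used here were not checked in this way, and other starts of these genes were not examined.

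*Sox2* had the highest mRNA level of the 15 Sox genes analysed. Its gene, which has no intron, occupies positions 121165137 to 121167545 of chromosome 2 (plus strand, rn6), and the nearest other listed gene, *Fxr1*, was 594784 bp away. Its FPKM was 558 and 592 in the libraries A1 and A2 and 406 and 356 in B1 and B2, a mean of 478 ± 137 (SD, n = 2). Both libraries of replicate A lay above both of replicate B. By the mean *Sox2* ranked 179 of 17337 gene names, with ranks from 144 to 245 in the single libraries, and 99.0% of the names had a lower level. Its nearest match in level across the 4 libraries, by distance in log2(FPKM + 1), was *Cd81*, at 513, 536, 424 and 323 FPKM in A1, A2, B1 and B2, followed by *Atp1b2* and *Glud1*.

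The SoxC members differed widely from each other. *Sox4* occupies positions 37615022 to 37619727 of chromosome 17 (plus strand) and also has no intron. It had 264 and 304 FPKM in the libraries A1 and A2 and 214 and 239 FPKM in B1 and B2, a mean of 255 ± 40.8 (SD, n = 2) at rank 356. Both libraries of A were again above both of B. Its nearest matches in level were *RGD1564093*, *Hspe1* and *Fis1*.

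*Sox11*, on the minus strand of chromosome 6 from 46629971 to 46631988, had 34.0 and 32.1 FPKM in the libraries A1 and A2 and 23.2 and 37.02 FPKM in B1 and B2, a mean of 31.6 ± 2.11 (SD, n = 2) at rank 3342. The small SD hides the libraries of B, which were the lowest and the highest of the 4. *Sox4* exceeded *Sox11* in each library, by a ratio of FPKM from 6.45 in B2 to 9.47 in A2. *Sox12*, the third SoxC gene, is not among the members and had 54.8 and 49.9 FPKM in the libraries A1 and A2 and 58.8 and 101 FPKM in B1 and B2. In FPKM it thus lay above *Sox11* in each library, and B2 stood above the other libraries for both genes. This order also depended on the scaling to length, described below for *Sox2* and *Sox4*, since per 1000000 fragments *Sox11* had 68.7 and 64.8 in the libraries A1 and A2 against 55.9 and 50.9 for *Sox12*, while in B1 and B2 it had 46.7 and 74.7 against 59.99 and 103.

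The SoxE members are genes of the glial lineage. *Sox9*, which is active in radial glia and astrocytes, and also in cartilage, occupies positions 101288528 to 101294028 of chromosome 10 (plus strand). It had 132 and 138 FPKM in the libraries A1 and A2 and 82.1 and 118 FPKM in B1 and B2, a mean of 117 ± 24.7 (SD, n = 2) at rank 913. The libraries of A were above those of B, but B1 and B2 were further apart from each other than B2 was from A1. Its nearest matches in level were *Emc7*, *Pmepa1* and *Mid1ip1*.

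*Sox8*, on the minus strand of chromosome 10 from 14932348 to 14937336, had 42.2 and 44.4 FPKM in the libraries A1 and A2 and 41.6 and 28.9 FPKM in B1 and B2, a mean of 39.3 ± 5.67 (SD, n = 2) at rank 2749. The level was close to even in A1, A2 and B1, and B2 was lower. *Sox10*, the SoxE gene of the oligodendrocyte lineage and neural crest, is not among the members and had 0.369, 0.373, 0.219 and 0.0731 FPKM in A1, A2, B1 and B2. The ratio of *Sox9* to *Sox8* was 3.13 and 3.10 in the libraries A1 and A2 and 1.97 and 4.07 in B1 and B2. The libraries of B therefore enclosed those of A.

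The SoxD members had the lowest levels and the longest genes. *Sox5* occupies positions 178066781 to 178441547 of chromosome 4 (minus strand), a span of 374767 bp, and had 5.11 and 5.07 FPKM in the libraries A1 and A2 and 4.25 and 3.99 FPKM in B1 and B2, a mean of 4.60 ± 0.682 (SD, n = 2). *Sox6* occupies positions 185673177 to 186182830 of chromosome 1 (plus strand), a span of 509654 bp, and had 2.26 and 2.53 FPKM in the libraries A1 and A2 and 1.76 and 2.51 FPKM in B1 and B2, a mean of 2.26 ± 0.186 (SD, n = 2). The strand of *Sox6* in rn6 is opposite to that of its promoter in GRCr8, and no coordinates were carried from one build to the other. For *Sox5* the libraries of A lay above those of B, and for *Sox6* they overlapped. They ranked 8299 and 9471, and *Sox5* exceeded *Sox6* in each library, with a ratio of *Sox6* to *Sox5* between 0.413 and 0.628. *Sox13*, the SoxD gene outside the members, had between 4.91 and 5.77 FPKM and overlapped with *Sox5*.

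**Figure D1:**
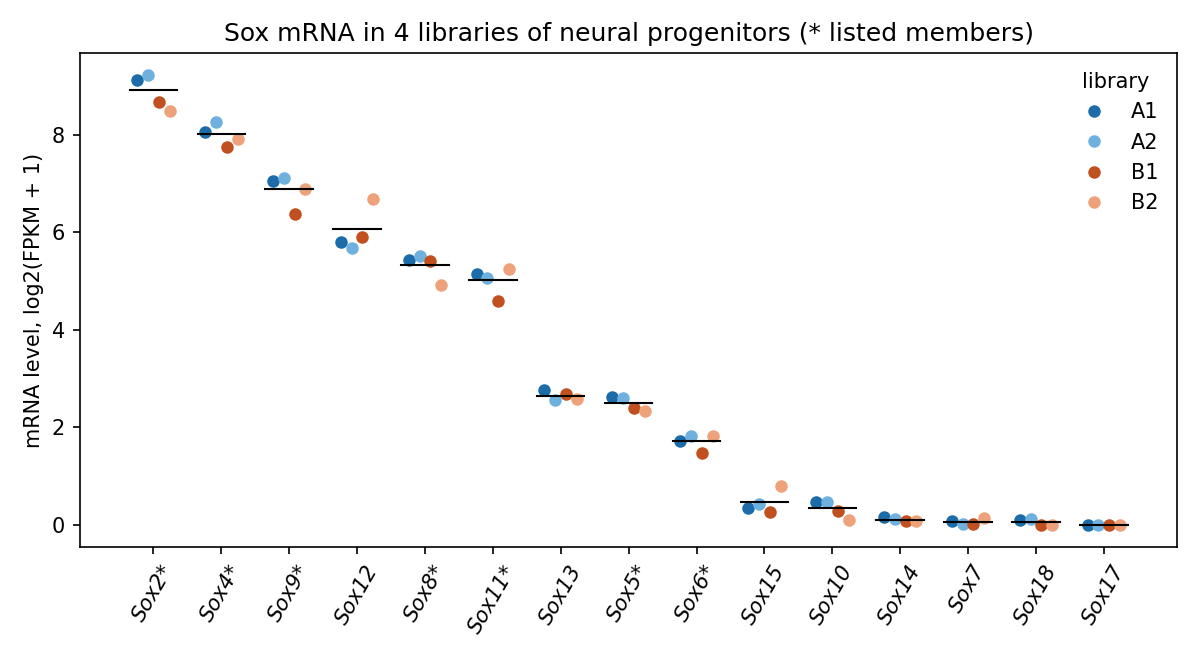
The mRNA level of 15 Sox genes on the log2(FPKM + 1) scale in the 4 libraries, with members marked by an asterisk, points for libraries and lines for the mean of replicates A and B. Levels ran from 478 FPKM for *Sox2* down to genes at or near 0, and *Sox12* in B2 stood above the other libraries of that gene.

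The order of the members by mean FPKM was *Sox2*, *Sox4*, *Sox9*, *Sox8*, *Sox11*, *Sox5* and *Sox6*. Of the 6 pairs of neighbours in this order, 5 were apart, in that each library of the higher gene lay above each library of the lower one. The exception was *Sox8* and *Sox11*, with means of 39.3 and 31.6 FPKM, whose libraries overlapped. In B2 *Sox8* had 28.9 FPKM and *Sox11* had 37.02. The means of the replicates did not overlap, with 43.3 and 35.3 FPKM in A and B for *Sox8* and 33.1 and 30.1 for *Sox11*. The order was the same in 3 of the 4 libraries, and in B2 *Sox11* came before *Sox8*. The largest step was from *Sox11* to *Sox5*, with a ratio of means of 6.86. All 7 members had a mean of at least 1 FPKM, as did 10481 gene names, whose median was 16.6 FPKM.

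**Figure D2:**
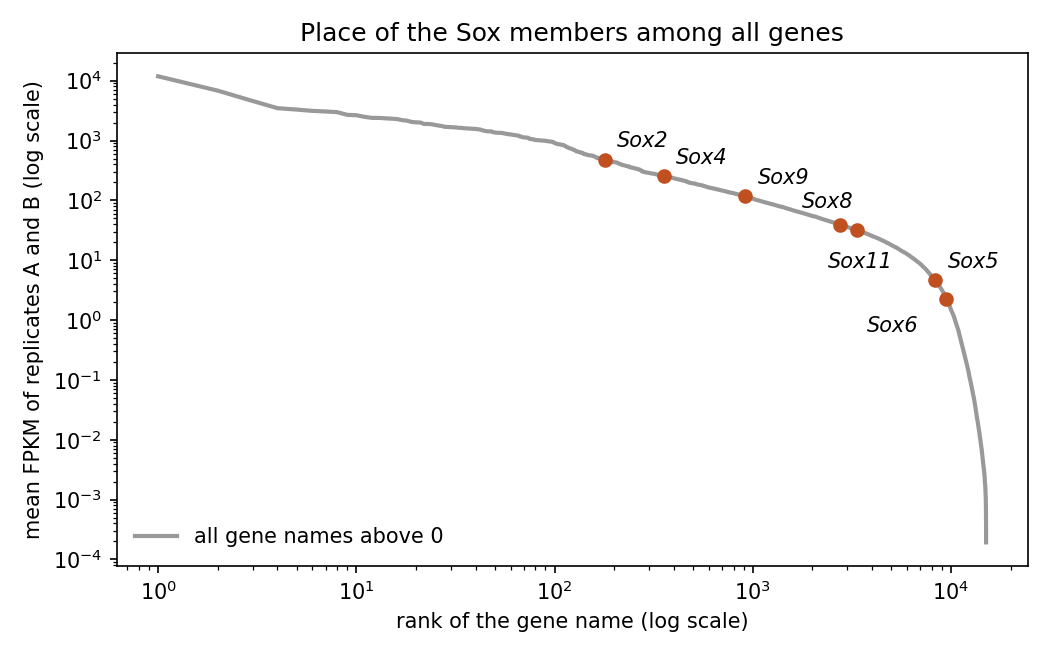
Mean FPKM of replicates A and B against rank, both on log scales, for all gene names above 0 (grey line) and the 7 Sox members (points). *Sox2*, *Sox4* and *Sox9* are above 100 FPKM, as are 1064 gene names in all, and *Sox5* and *Sox6* lie below the median of expressed genes.

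The order of *Sox2* and *Sox4* depended on the scaling to length. FPKM divides by the length of the transcript, and the gene model of *Sox4* spans 4706 bp against 2409 bp for *Sox2*. Without this step, *Sox2* had 1151 ± 330 fragments per 1000000 and *Sox4* had 1201 ± 192 (SD, n = 2). The ratio of *Sox2* to *Sox4* in fragments was 1.08 and 0.996 in the libraries A1 and A2 and 0.970 and 0.764 in B1 and B2, while in FPKM it was between 1.49 and 2.11. The ratio of *Sox4* to *Sox11* in fragments was between 15.0 and 22.1, so *Sox4* stayed above *Sox11* on either scale. The numbers of fragments from *Sox2* and *Sox4* were thus close to even in A1, A2 and B1, and lower for *Sox2* in B2. This calculation was chosen after the values were seen and uses the span of the gene model as the length, which holds for genes without introns. The models of *Sox11* and *Sox12* span 2018 and 1020 bp. Whether the models cover the whole transcripts was not tested, and reads outside a model may not be counted. Comparisons between these genes, in FPKM or in fragments, therefore hold for the models as listed.

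Among 8 other Sox genes listed in the tables, only *Sox12* and *Sox13* had a mean of at least 1 FPKM. *Sox15* had 0.378 FPKM on average and was highest in B2 at 0.729, but *Mpdu1*, at 59.5 to 71.8 FPKM, overlaps it on the opposite strand, and without stated counting by strand their reads cannot be told apart. No other listed gene overlapped any of the 7 members. *Sox14*, *Sox7* and *Sox18* had means from 0.0380 to 0.0738 FPKM, *Sox18* was listed at 0 in B1 and B2, and *Sox17*, a gene of endoderm and blood vessels like *Sox7* and *Sox18*, was listed at 0 in all 4 libraries.

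Summed over the 15 Sox genes analysed, FPKM reached 1136 in replicate A and 865 in B, of which the members made up 94.8% and 90.1%. SoxB1, here *Sox2* alone, had 50.8% and 50.4% of the sum in A1 and A2, and 48.5% and 39.9% in B1 and B2. SoxC had 32.1%, 32.9%, 35.4% and 42.2% in the same order. In A1, A2 and B1 the SoxB1 share was the largest, while in B2 the SoxC share was slightly above it. This order held in FPKM only, since without scaling to length the SoxC genes summed to 1367, 1548, 1115 and 1301 fragments per 1000000 in A1, A2, B1 and B2, above *Sox2* in each library, which had 1343, 1425, 978 and 858. SoxE had between 14.8% and 16.5%, a mean of 15.7% ± 0.0419 (SD, n = 2), and SoxD between 1.07% and 1.36%. A share within a library does not depend on how libraries are scaled, but it does depend on the scaling to length and on which genes are listed.

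**Figure D3:**
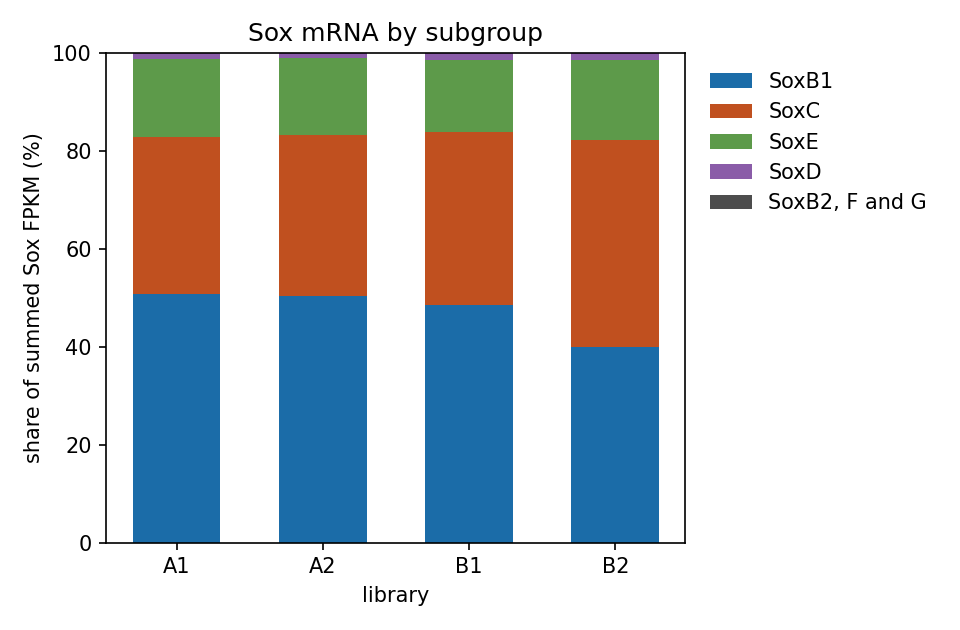
Share of each Sox subgroup in the summed FPKM of 15 Sox genes, as stacked bars for the 4 libraries. The SoxB1 share is 50.8% in A1 and 39.9% in B2, the SoxE share stays between 14.8% and 16.5%, and SoxB2, SoxF and SoxG together are too small to be seen.

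Replicates A and B were compared member by member, as a measure of how far cultures of the same kind differ. The mean of A was above that of B for 7 of 7 members. A gene was called when its difference was at least 1 on the log2(FPKM + 1) scale, its mean at least 1 FPKM and its libraries of A and B did not overlap. This was true of 0 of the 7 members and of 6.20% of all genes tested. With the limit lowered to 0.58 it was true of 1 member, *Sox2*, and of 16.5% of all genes, and outside the members also of *Sox12*, which was higher in B. *Sox2* fell short of this limit without A2, at 0.55, and without B2, at 0.50. Without the limit on size, 5 members, *Sox2*, *Sox4*, *Sox5*, *Sox8* and *Sox9*, had each library of A above each library of B, against 32.0% of all genes. In bulk RNA, fewer cells of a type and less RNA per cell cannot be told apart.

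The largest difference among the members was that of *Sox2*, with a ratio of A to B of 1.51 and a log2 difference of 0.59. Of 297 genes within 2-fold of its mean level, 15.8% differed by at least as much, and the median difference of these genes was -0.04. *Sox9* followed at 0.43 and *Sox4* at 0.33, and the lowest were *Sox11* at 0.13 and *Sox6* at 0.12. The median over the members was 0.29, beside 0.03 over the 10481 genes tested. *Sox12* ran the other way, with 52.4 FPKM in A and 79.9 in B and a log2 difference of -0.60, which was -0.16 without B2 and -0.93 without B1. Within technical pairs the median absolute difference of all genes was 0.11 for the libraries of A and 0.22 for those of B.

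Only for *Sox2*, *Sox4* and *Sox5* among the members did the difference between A and B exceed both technical differences. For *Sox9* the log2 difference between B1 and B2 was -0.51, and leaving out B2 moved the difference between A and B from 0.43 to 0.71, whereas leaving out B1 moved it to 0.19. For *Sox8* the same steps gave 0.06 without B2 and 0.56 without B1. *Sox11* was 0.50 without B2 and -0.16 without B1, and *Sox6* was 0.30 and -0.05, so that without B1 only 5 of the 7 members were higher in A. For *Sox2*, *Sox4*, *Sox5*, *Sox8* and *Sox9* each library of A was above each library of B. Their direction therefore could not change with a library left out, and this is no separate check.

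**Figure D4:**
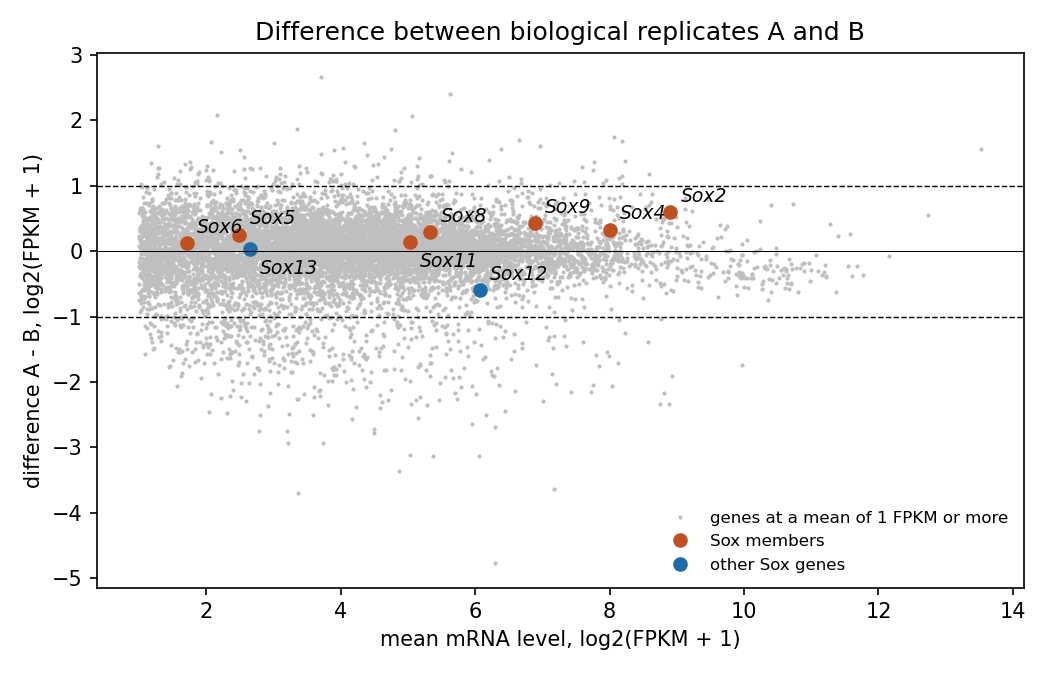
Difference between replicates A and B against mean level, both on the log2(FPKM + 1) scale, for 10481 genes (grey), the 7 Sox members (orange) and *Sox12* and *Sox13* (blue), with dashed lines at the limits for a call. The members lie between 0.12 and 0.59, inside the dashed lines.

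The replicates also differed in markers of another cell type. Of 10 marker genes of meningeal and mesenchymal cells, 10 had a mean of at least 1 FPKM, 8 were called higher in B and 0 higher in A, against 4.78% of all genes called higher in B. Their summed FPKM was 656 to 676 in the libraries of A and 2501 to 3026 in those of B. *Col1a1*, a fibrillar collagen gene, had 163 FPKM in A and 735 in B, and *Foxc1*, a transcription factor of the meninges, had 14.1 in A and, in B1 and B2, 29.4 and 115. The median log2 difference of the list was -1.75, and without B2 it was -1.49 with 7 called higher in B. The part of these cells in the lower Sox levels of B was not tested.

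The neural progenitor markers had no direction that held with each library left out. Of the 9, 2 were called higher in A, *Fabp7* and *Hes5*, against 1.42% of all genes, and 4 had a higher mean in A, with a median log2 difference of -0.07. Without B2, 8 of the 9 had a higher mean in A and the median was 0.22, and without A2 these were 5 and 0.06, with the same 2 genes called in both cases. *Msi1*, an RNA-binding protein of progenitors, had 127 FPKM in A and, in B1 and B2, 109 and 158, and *Slc1a3*, a glutamate transporter of radial glia, had 185 in A and 174 and 213 in B1 and B2. Among 10 neuron markers, 8 had a higher mean in A, 6 reached a mean of 1 FPKM and 0 were called, against 6.20% of all genes, and the summed FPKM was 162 to 185 in A and 143 to 160 in B. *Gfap*, the astrocyte filament gene, had 502 and 460 FPKM in A1 and A2 and 419 and 904 in B1 and B2, so that it was above A in B2 and below A in B1. Of 5 astrocyte markers, all with a mean of at least 1 FPKM, 2 had a higher mean in A, and the median log2 difference was -0.18, which was 0.13 without B1 and 0.08 without B2. Of these 5, 1, *S100b*, was called higher in A, against 1.42% of all genes, and it was not called without B2. Of 7 markers of the oligodendrocyte lineage 5 reached a mean of 1 FPKM, and 2 of these, *Olig1* and *Pdgfra*, were called higher in B, against 4.78% of all genes. *Pdgfra* is also known from mesenchymal cells, and *Olig1* was not called without A1 or without B1. Of 5 neural crest markers 2 reached a mean of 1 FPKM, and 1 of these, *Tfap2a*, was called higher in B, against the same share of all genes. Of 4 intermediate progenitor markers 1, *Neurog1*, was analysed, with 0.449 FPKM.

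Genes that work with Sox factors were also listed. Of 8 partner genes analysed, 8 had a mean of at least 1 FPKM, 7 had a higher mean in A and 0 were called, against 6.20% of all genes. *Pou3f3*, a POU factor, was the highest with 147 ± 33.6 FPKM (SD, n = 2), and *Pou3f2*, which binds beside SOX2 in progenitors, had 54.2 FPKM in A and 29.6 in B. *Pax6*, a cortical progenitor factor, had 38.2 FPKM in A and, in B1 and B2, 22.1 and 37.3, so that its difference rested on B1, and *Nfia*, which acts with SOX9 in glia, had 41.0 in A and, in B1 and B2, 33.3 and 45.8. The median log2 difference of the partners was 0.33.

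Of 9 genes known as targets of SoxB1 factors, 9 had a mean of at least 1 FPKM, and 2 were called, both higher in A, against 1.42% of all genes. They are *Hes5* and *Fabp7*, which are also the progenitor markers called above, so both lists count the same genes. Of the 9 targets, 6 had a higher mean in A, with a median log2 difference of 0.59. *Jag1*, a Notch ligand, ran the other way without overlap, with 8.96 FPKM in A and 16.3 in B. *Hes5*, a Notch effector, had 398 FPKM in A and 180 in B. *Fabp7*, a fatty acid binding protein of radial glia, had 17679 and 6003. *Nes*, the intermediate filament gene activated by SOX2 with POU factors, had 36.3 in A and, in B1 and B2, 28.2 and 55.4, so that its direction rested on B2. *Egfr*, the receptor of EGF in the medium, had 14.8 in A and 7.42 in B. Of the 5 SoxC targets 4 reached a mean of 1 FPKM and 0 were called, against 6.20% of all genes, and *Tubb3*, a tubulin of young neurons, had 125 FPKM in A and 111 in B. *Dcx*, a microtubule protein of migrating neurons, had 11.7 and 7.73, while *Neurod1*, a neuronal bHLH factor, was below 1 FPKM. Of 5 SoxE and SoxD targets analysed 3 reached a mean of 1 FPKM, and 1 of these, *Mmd2*, was called higher in A, against 1.42% of all genes, with 69.6 FPKM against 26.2 in B, and the cartilage genes *Col2a1* and *Acan* had means of 0.437 and 0.0149 FPKM.

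**Figure D5:**
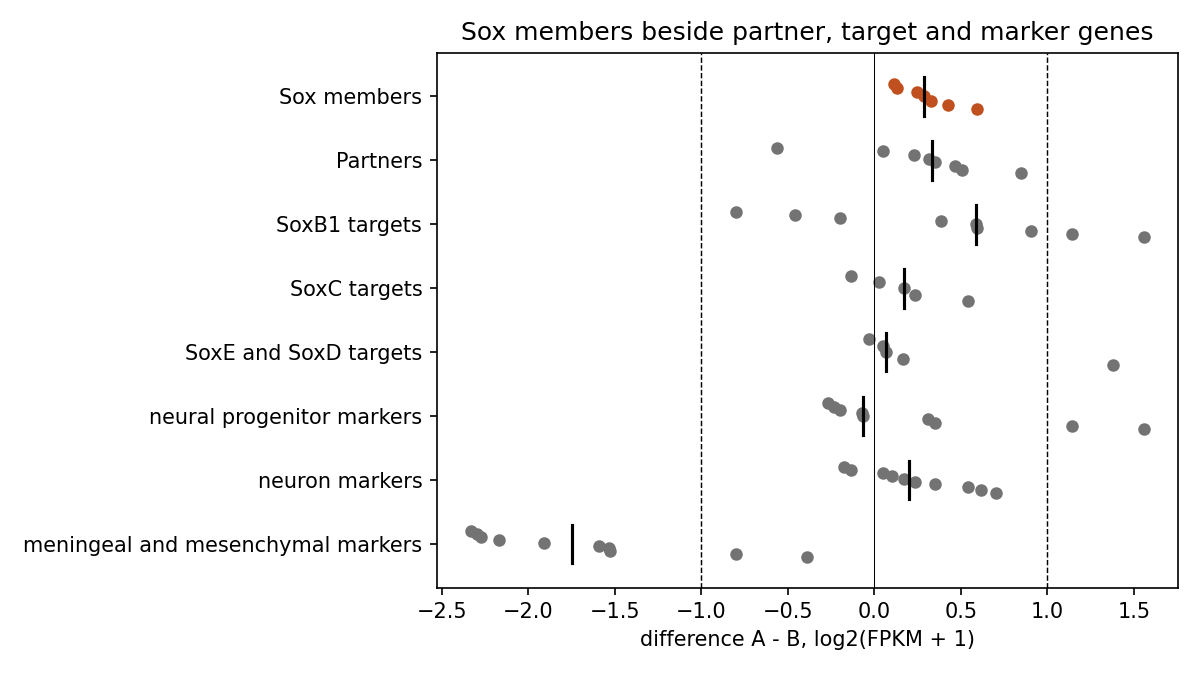
Difference between replicates A and B on the log2(FPKM + 1) scale for the 7 Sox members and for genes of the partner, target and marker lists, with a point for each gene, a vertical line for the median of each list and dashed lines at the limits for a call. The median is 0.29 for the Sox members and -1.75 for the meningeal and mesenchymal markers.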

How the data were processed

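PolyA RNA-seq of 4 libraries, 2 technical libraries for each of 2 biological replicates, was examined, with groups from the sample titles. Reads were aligned by the authors with STAR to rn6, and the authors deposited FPKM, TPM and coverage (mean depth, not scaled to the library) per gene in the layout of StringTie, while the paper's methods name Rsubread and DESeq2 for FPKM. Tool versions and counting by strand are not given in the sources used here. The deposited TPM values sum to 1000000 in each library. The total read number per library was not used, so depth is given as coverage per FPKM, and no counting intervals were computed.

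FPKM values of rows sharing a gene name were added, averaged over technical libraries and given as mean ± SD over replicates A and B. Differences used a pseudocount of 1, which understates changes of low genes. The call rule was run on simulated data as a check of the code, which does not show how often it errs for these cultures. The named genes are the members, the other Sox genes, overlapping genes, the partner, target and marker lists, and the 3 closest profiles of each of the 3 highest members. Members and lists were chosen with earlier results of these data known. Alternatives were TPM, scaled libraries, other thresholds and pseudocounts, and libraries or replicates left out. Python 3.11.15, pandas 2.3.3, numpy 2.4.6 and matplotlib 3.10.9 were used.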

Additional observations from a re-analysis of the deposited data

Results flagged for a closer look

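Of 27 values examined across the 4 libraries, 3 had 1 library standing apart, with a gap to its neighbour that takes up most of the whole range, and in each case it was B2. With independent samples about 1 value in 20 would stand apart by chance, and these libraries are technical pairs. The coverage per FPKM of B2 was 6.83, against 22.7 to 24.4 in the others. The ratio of *Sox11* to *Sox2* was 0.104 in B2 and between 0.0543 and 0.0610 in the others. The share of SoxG, which is *Sox15* alone, in the summed Sox FPKM was 0.0818% in B2 and between 0.0223% and 0.0284% in the others.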

How the results depend on the processing

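Of 333 alternatives computed for 64 results, 297 stayed within the spread of the replicates or, for a count, within 1.5 times, and 36 moved it further, 31 of them for single genes, ratios or marker lists. Many of the 297 could not move. Leaving out a replicate shifts a level, share or ratio by less than the SD of the replicates. Thresholds do not enter the log2 difference of a gene, and TPM leaves ratios within a library unchanged. The count of 297 is therefore no measure of robustness. As no member was called, no called difference could change sign. Without B1 the uncalled differences of *Sox11* and *Sox6* went from 0.13 and 0.12 to -0.16 and -0.05. With TPM the summed level of the members was 1562 against 928 in FPKM, which is the change of unit. At a log2 difference of at least 0.58, 1 member, *Sox2*, was called between A and B in place of 0, and 1725 of all genes in place of 650, while a mean of at least 10 FPKM left 331, since fewer genes were tested. Without library B2, chosen after seeing the data for shares and order, the SoxE share was 15.3% against 15.7%, and the pairs of members apart numbered 6 against 5. All members remained higher in A with scaled libraries and with TPM, which moved the median over all genes by -0.02 and 0.05. Leaving out each library was added for the lists after seeing the data, and for the partner and target lists it kept the counts of called genes. No paired analysis was possible because the libraries form 1 condition with 2 cultures. The lower depth of B2 limits genes near 0, such as *Sox7* and *Sox14*.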
